A study of Mus musculus with 6 samples.

Results

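Members of the integrated stress response, 10 genes in all, were taken by symbol from a deposited gene table: Atf4, Ddit3 (which encodes CHOP), Trib3, Chac1, Atf5, Atf3, Ddit4, Sesn2, Nupr1 and Asns. They were picked as ATF4 with genes under its control, leaving out the enzymes of serine synthesis, and all 10 had a row among the 55385 rows of the table. The samples were mouse Neuro2A (N2A) cells, a neuroblastoma line labelled as neuroblasts, transfected at 100 nM with the control siRNA si-NC (3 libraries) or with si-circCpsf6, an siRNA against the circular RNA circCpsf6 (3 libraries). Neither group carried another label of treatment, time or genotype. The table gave FPKM, that is fragments scaled to transcript length and to library size, for each gene and library. A value per gene does not measure the circle, so the knockdown itself could not be read from it. The labels do not say whether the replicates were separate cultures, and p-values below measure the spread between these libraries.

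ATF4 is a basic leucine zipper (bZIP) transcription factor whose protein level is set mainly by translation. When stress kinases phosphorylate eIF2, general translation falls and the Atf4 coding sequence is translated past its upstream reading frames. ATF4 then drives amino acid supply genes and a second layer of regulators, among them CHOP, ATF3, ATF5 and TRIB3, and it binds C/EBP-ATF composite elements in many of their promoters.

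The core of that element, TGATGNAA, was searched on both strands in the RefSeq promoter windows (GRCm38.p6, 250 bases before to 50 bases after each start). All 10 genes had a window, and 5 of them held the core, beside 1219 of 27025 genes in the whole promoter table (4.51%). These 5 sites are shown because they are the letters the genes have in common. They are read on the strand of the gene, and the capitals mark the match. In Atf3, Chac1, Nupr1 and Trib3 the core lies on the other strand and so reads as its reverse complement.
Atf3, chr1:191183420-191183459: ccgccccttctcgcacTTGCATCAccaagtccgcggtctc
Chac1, chr2:119351033-119351072: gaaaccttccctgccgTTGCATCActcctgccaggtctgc
Nupr1, chr7:126625557-126625596: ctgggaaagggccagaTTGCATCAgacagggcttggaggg
Trib3, chr2:152344023-152344062: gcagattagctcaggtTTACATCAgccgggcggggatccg
Asns, chr6:7693209-7693248: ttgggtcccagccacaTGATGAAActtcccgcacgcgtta
The 8-letter match was the same in Atf3, Chac1 and Nupr1 and began 110, 193 and 110 bases before the start. In Asns it began 23 bases before the start, and in Trib3 at base 15 after it. No window of Atf4, Ddit3, Atf5, Ddit4 or Sesn2 held the core. Exact copies of the cAMP response element TGACGTCA and the endoplasmic reticulum stress element stood in no window of the 10 genes. The latter was searched as CCAAT and CCACG at a fixed spacing. Of genes in the promoter table, 2.03% and 0.137% held a copy. At such shares none in 10 genes says little, and sites that differ by any base were not searched for. A match here is a run of letters, not a measured binding site.

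Upstream start codons were counted in the 5' UTR of the principal transcript (GENCODE M21), since they bear on how Atf4 is translated. Of the 10 genes, 7 had at least 1 ATG there, beside 53.1% of tested genes with a 5' UTR of at least 20 bases. Atf4 had 3 in a 5' UTR of 594 bases and Atf5 had 2 in 373 bases, and in each gene 1 of the reading frames ran over the start codon of the coding sequence. An upstream frame of that kind was seen in 16.2% of tested genes. Trib3, Chac1 and Ddit4 had no upstream ATG at all. In the 3' UTRs, the heptamer GCAGAAT, a motif picked earlier on these same libraries, stood in none of the 10 genes and in 10.2% of tested genes with a 3' UTR of at least 50 bases.

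The 6 libraries held 12671 to 13080 genes at 1 FPKM or more, and the 12974 genes that averaged 1 FPKM or more were tested. All 10 genes were among them. A further row named Ddit3, for a short overlapping locus (ENSMUSG00000116429), read 0.00 to 0.20 FPKM and was not tested. Of 14 neuroblast and sympathoadrenal markers, 12 had a mean of at least 1 FPKM. Their sums were 778 to 974 FPKM in si-NC and 681 to 740 FPKM in si-circCpsf6, so the groups did not overlap, and the part of this in the results below was not tested. Fewer cells of a type and less RNA per cell cannot be told apart in such values. Markers of other cell types were low: 2 of 8 fibroblast, 2 of 6 endothelial, 2 of 5 oligodendrocyte and 0 of 5 astrocyte, 0 of 6 microglia and 0 of 4 epithelial markers reached a mean of 1 FPKM. The fibroblast sums were 2.61 to 10.6 FPKM in si-NC and 5.53 to 11.6 FPKM in si-circCpsf6. The epithelial sums did not overlap, at 0.49 to 0.77 FPKM in si-NC and 1.09 to 1.43 FPKM in si-circCpsf6, with Krt18 at 0, and their part in the results was not tested.

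Whether the stress genes moved when the circle was targeted was read by setting the 3 si-circCpsf6 libraries against the 3 si-NC libraries. None of the 10 passed the test (limma on log2(FPKM + 1), Benjamini-Hochberg adjusted over all tested genes, threshold 0.05), where 0.902% of tested genes were called higher and 0.786% lower. At an unadjusted p under 0.05, Ddit3, Asns and Nupr1 were higher and no member was lower, while 10.2% and 10.1% of tested genes were higher and lower at that level. Ddit3 and Asns were the only members whose 3 si-circCpsf6 values all lay above the 3 si-NC values, as in 12.8% of tested genes (14.0% lay all below). In the authors' deposited table, Ddit3 had a q value listed as 0.00 and was the only member with q under 0.05, a level reached upward by 3.22% and downward by 2.29% of the tested genes. Fitted differences were above 0 in 8 of the 10 genes, and in 47.2% of all tested genes. Their median was 0.67 on the log2 scale, beside -0.02 for all tested genes.

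**Figure D1:**
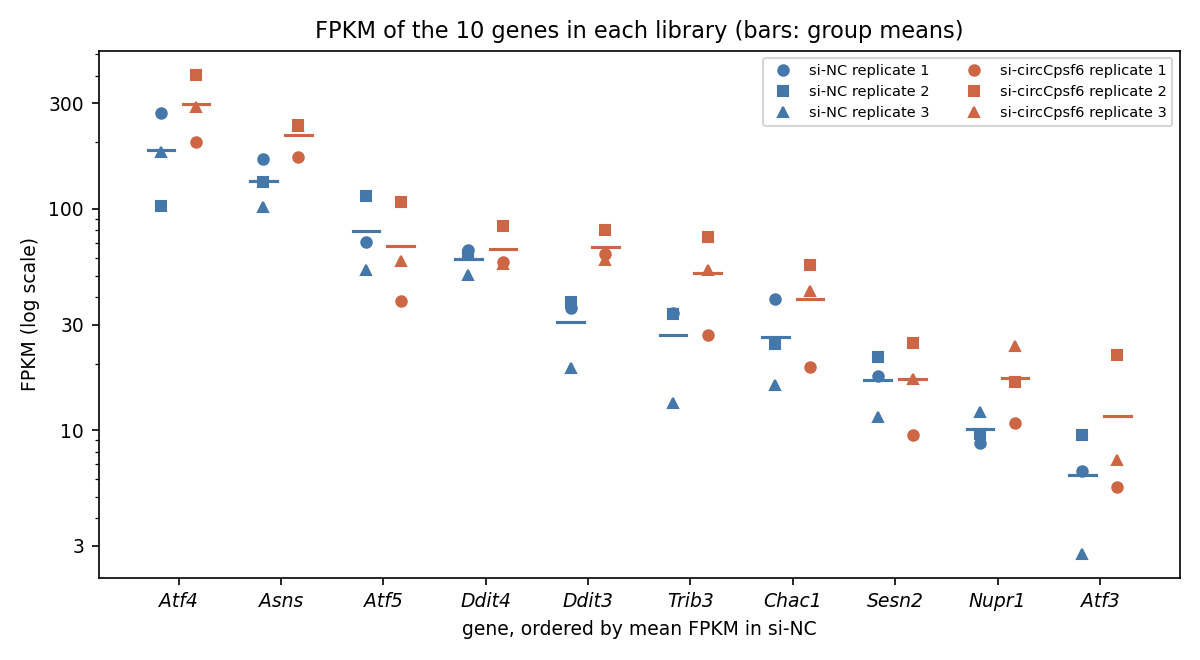
FPKM on a log axis for each gene and library, with si-NC in blue, si-circCpsf6 in orange, a symbol for each replicate number and a bar at each group mean. Ddit3 and Asns have no overlap between groups. The si-circCpsf6 values of Trib3 run from 26.9 FPKM, inside its si-NC range of 13.3 to 34.0 FPKM, to 74.9 FPKM above it.

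Atf4 itself (ENSMUSG00000042406, chromosome 15, 80255184 to 80257541, GRCm38, 3 exons) had the highest mean of the 10 genes in both groups. It read 272, 103 and 181 FPKM in si-NC replicates 1 to 3 and 201, 404 and 289 FPKM in si-circCpsf6 replicates 1 to 3. The groups overlapped, because si-NC replicate 1 lay above si-circCpsf6 replicate 1. Means were 185 ± 84.7 and 298 ± 102 FPKM (SD, n = 3 each). The difference was 0.73 on the log2 scale, with a 95% interval of -0.16 to 1.62 (limma adjusted p = 0.335), so neither no change nor a rise of more than 1 log2 unit lay outside it.

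Atf5, a bZIP relative of ATF4 that is likewise controlled through upstream frames (chromosome 7, 44812256 to 44816658), was one of 2 members with a fitted difference below 0. Its values were 71.1, 114 and 53.2 FPKM in si-NC and 38.4, 108 and 58.1 FPKM in si-circCpsf6. The groups overlapped over nearly their whole range. The difference was -0.28 (95% interval -1.21 to 0.66, limma adjusted p = 0.747). Atf5 shares 82 of its 1993 exonic bases with Nup62 on the opposite strand, whose mean was 32.7 FPKM, and no source used here says whether strand was counted.

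Ddit3 encodes CHOP, the bZIP factor that acts late in the response and is known for promoting cell death and for recovery of translation (chromosome 10, 127290774 to 127296288, 4 exons). It read 35.6, 37.8 and 19.1 FPKM in si-NC and 62.85, 80.35 and 58.8 FPKM in si-circCpsf6. Every si-circCpsf6 library lay above every si-NC library, and the lowest of them was 58.8 FPKM against a highest si-NC value of 37.8 FPKM. Group means were 30.9 ± 10.2 and 67.3 ± 11.5 FPKM (SD, n = 3 each), a ratio of 2.18. On the log2 scale the difference was 1.15 (95% interval 0.53 to 1.76), the largest of the 10, and it did not pass (limma adjusted p = 0.0757). Ddit3 shares 68 of its 1713 exonic bases with Mars, a methionyl-tRNA synthetase gene on the opposite strand. Mars read 36.0 to 47.7 FPKM in si-NC and 43.1 to 50.6 FPKM in si-circCpsf6, so its groups overlapped.

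Atf3, a stress-induced bZIP repressor (chromosome 1, 191170296 to 191218039), had the lowest mean of the 10 genes in both groups and the widest range, with its highest library 7.96 times its lowest. It read 6.55, 9.49 and 2.76 FPKM in si-NC and 5.53, 21.96 and 7.33 FPKM in si-circCpsf6. Replicate 2 of si-circCpsf6 stood apart from the rest, and the other two lay within the si-NC range. The difference was 0.69 (95% interval -0.54 to 1.91, limma adjusted p = 0.510). Without si-circCpsf6 replicate 2 it was 0.14.

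Nupr1, a small chromatin-associated stress protein of 80 codons (chromosome 7, 126623249 to 126630861), read 8.77, 9.59 and 12.1 FPKM in si-NC. The si-circCpsf6 libraries gave 10.8, 16.5 and 24.1 FPKM. Only replicate 1 of si-circCpsf6 fell inside the si-NC range. The difference was 0.64 (95% interval 0.01 to 1.27, limma adjusted p = 0.237).

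Trib3 encodes a pseudokinase that binds ATF4 and CHOP and restrains AKT (chromosome 2, 152337422 to 152344032). Its values were 34.0, 33.4 and 13.3 FPKM in si-NC and 26.9, 74.9 and 52.96 FPKM in si-circCpsf6. Replicates 2 and 3 of si-circCpsf6 lay above all si-NC libraries, and replicate 1 lay below 2 of them. Means were 26.9 ± 11.8 and 51.6 ± 24.1 FPKM (SD, n = 3 each), and the difference was 0.91 (95% interval -0.14 to 1.96, limma adjusted p = 0.310).

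Chac1, which degrades glutathione (chromosome 2, 119351229 to 119354381), had the same order of libraries as Trib3 from lowest to highest. It read 39.1, 24.4 and 15.98 FPKM in si-NC and 19.3, 55.9 and 42.6 FPKM in si-circCpsf6. Again replicate 1 of si-circCpsf6 was low and the other two were above every si-NC value. The difference was 0.51 (95% interval -0.49 to 1.51, limma adjusted p = 0.549).

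Of the brakes on mTORC1, Sesn2 encodes a leucine sensor of the GATOR pathway (chromosome 4, 132492032 to 132510501) and Ddit4 encodes REDD1, which acts through the TSC complex (chromosome 10, 59949669 to 59951834). Sesn2 read 17.6, 21.4 and 11.5 FPKM in si-NC and 9.52, 24.7 and 17.1 FPKM in si-circCpsf6. Both the lowest and the highest library of Sesn2 belonged to si-circCpsf6. Its difference was -0.03 (95% interval -0.83 to 0.77, limma adjusted p = 0.972), while the ratio of mean FPKM was 1.02, so the sign depended on the scale. Ddit4 read 65.3, 61.8 and 50.4 FPKM in si-NC and 57.3, 83.5 and 56.65 FPKM in si-circCpsf6. It was the steadiest of the 10, with a highest library 1.66 times its lowest, and its groups overlapped. The difference of Ddit4 was 0.14 (95% interval -0.31 to 0.58, limma adjusted p = 0.736), so its interval left out a rise of 1 log2 unit.

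Asns, asparagine synthetase (chromosome 6, 7675169 to 7693254, 12 exons), is the only enzyme of amino acid synthesis among the 10 and a classical ATF4 target. It read 167, 133 and 102 FPKM in si-NC and 172, 239.6 and 236 FPKM in si-circCpsf6. The groups were apart by a narrow margin, 172 FPKM in the lowest si-circCpsf6 library against 167 FPKM in the highest si-NC library. Means were 134 ± 32.6 and 216 ± 37.8 FPKM (SD, n = 3 each). The difference was 0.70 (95% interval 0.18 to 1.21) and did not pass (limma adjusted p = 0.144).

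**Figure D2:**
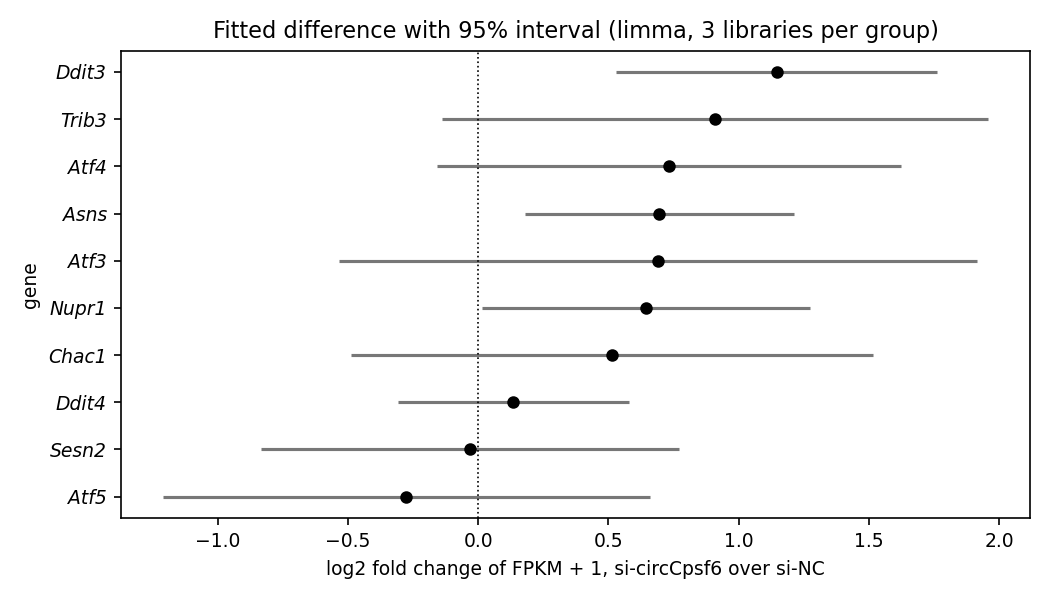
Fitted log2 fold change of FPKM + 1 for each gene (points) with its 95% interval from limma (lines). The intervals of Ddit3, Asns and Nupr1 lie above 0 before adjustment over all genes, and the other 7 include 0.

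Because FPKM is scaled by length, levels can be ordered between genes. In si-NC the order by mean FPKM was Atf4 (185), Asns (134), Atf5 (79.5), Ddit4 (59.2), Ddit3 (30.9), Trib3 (26.9), Chac1 (26.5), Sesn2 (16.8), Nupr1 (10.2) and Atf3 (6.27). Only Ddit4 and Ddit3 were neighbours whose ranges did not overlap. In si-circCpsf6 Ddit3 (67.3) moved above Ddit4 (65.8) in mean, with overlapping ranges, and the only gap between neighbours was from Asns (216) to Atf5 (68.1).

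The genes also varied widely within each group, a pattern picked out after the values were seen. The median SD of log2(FPKM + 1) was 0.54 in si-NC and 0.60 in si-circCpsf6 for the 10 genes, beside 0.17 and 0.22 for all tested genes. Replicate 2 of si-circCpsf6 was the highest of the 6 libraries in 8 of the 10 genes (Atf5 and Nupr1 excepted), as it was in 18.2% of tested genes. Replicate 1 of si-circCpsf6 was the lowest of its group in 8 of the 10, against 44.2% of tested genes. In Atf4, Trib3, Chac1, Atf5, Atf3 and Sesn2, replicate 2 was at least 2 times replicate 1, a gap found in 670 of 12974 tested genes (5.16%). The ratio was largest for Atf3 (3.97) and smallest for Ddit3 (1.28). In si-NC, replicate 3 was the lowest of its group in 8 of the 10 genes, against 33.8% of tested genes, and the exceptions were Atf4, lowest in replicate 2, and Nupr1, lowest in replicate 1. The genes share regulators and were read in the same libraries, so they are not independent witnesses of this spread.

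**Figure D3:**
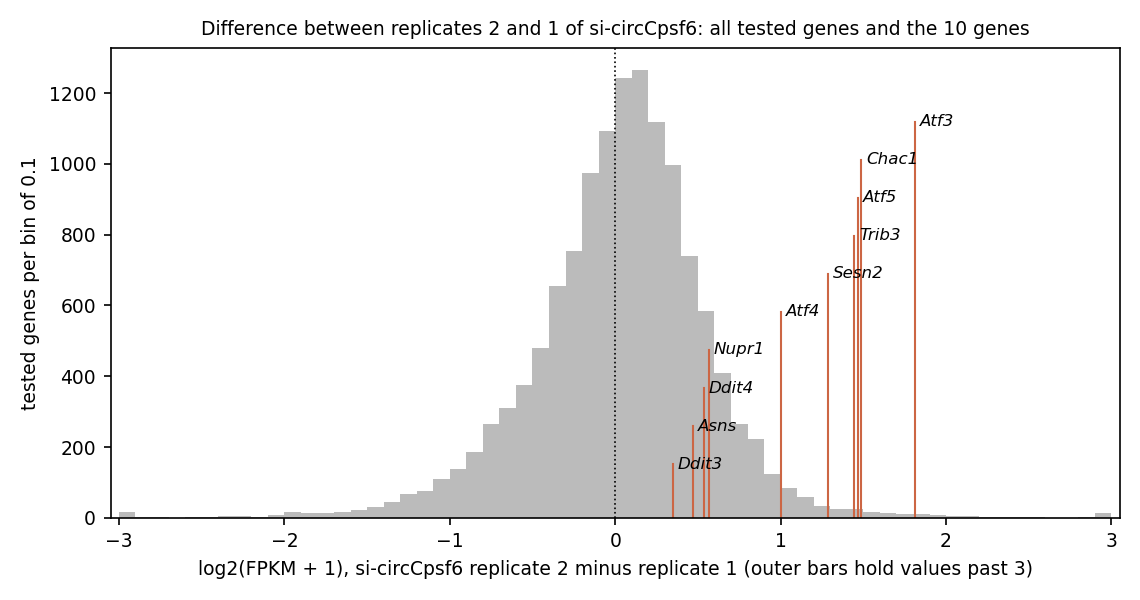
Histogram of log2(FPKM + 1) in si-circCpsf6 replicate 2 minus replicate 1 over all tested genes (grey bars, 0.1 wide), with the 10 genes as vertical lines whose heights only separate the names. All 10 lie to the right of 0, from 0.35 for Ddit3 to 1.81 for Atf3, while the median of tested genes is 0.06.

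Profiles over the 6 libraries fell into different shapes. Each gene was centred on its own mean of log2(FPKM + 1), and likeness was the root mean square difference between centred profiles. The nearest pair was Atf5 and Sesn2 (0.20), both highest in replicate 2 of each group, and the next was Trib3 and Chac1 (0.30). Atf4 and Atf5 were the farthest pair (0.85), since si-NC replicate 2 held the lowest Atf4 and the highest Atf5 value. The Atf4 mRNA was nearer to Asns (0.41) than to any other member, and 132 of the 7104 other protein-coding genes averaging 5 FPKM or more were nearer still. The median distance of the 7104 genes from Atf4 was 0.65. Sesn2 (0.68), Atf3 (0.77) and Atf5 (0.85) lay farther than that, and the other members nearer. The 5 nearest of the 7104 genes to Atf4 were Srprb (0.22), Nptxr (0.24), Cldn12 (0.25), Etv5 (0.26) and Fads2 (0.27). For Ddit3 they were Flnc (0.13), Vegfa (0.14), Vwa5b1 (0.16), Rin1 (0.17) and Fzd4 (0.18). The member nearest to Ddit3 was Asns (0.33), and 75 of the 7104 genes were nearer still.

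**Figure D4:**
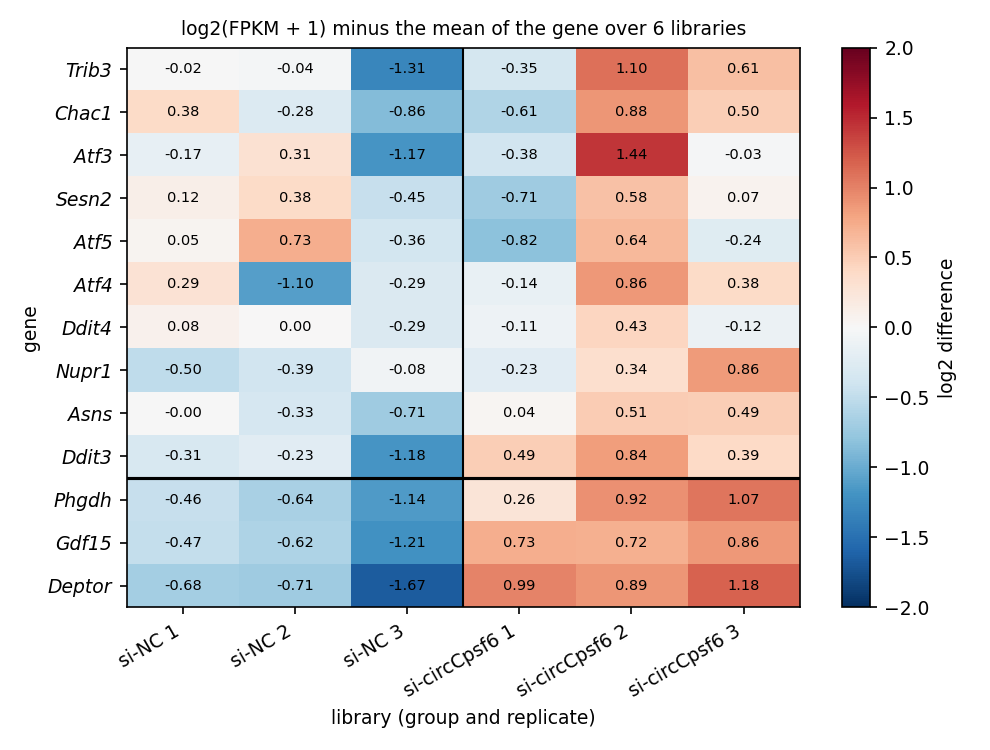
Centred log2(FPKM + 1) of each gene (rows) in each library (columns), red above and blue below the mean of the gene over the 6 libraries. The upper 10 rows are the stress genes and the lower 3 are Phgdh, Gdf15 and Deptor, whose si-circCpsf6 values are above 0 in all 3 libraries, as are those of Asns and Ddit3.

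Further genes of the pathway were read from lists that hold no member, put together with earlier results of these data known. Among metabolic and transport targets of ATF4, 1 of 30 tested genes passed upward and none downward, beside 0.902% and 0.786% of all tested genes. At an unadjusted p under 0.05 (limma), 8 of the 30 were higher and none lower, beside 10.2% and 10.1% of all tested genes. All 30 fitted differences were above 0, with a median of 0.53. Over all tested genes 47.2% were above 0, and the median was -0.02. The groups were apart upward in 5 of the 30 and downward in none, beside 12.8% and 14.0% of all tested genes. The gene that passed was Phgdh, the entry enzyme of serine synthesis. It read 59.4, 52.3 and 36.8 FPKM in si-NC and 98.5, 156 and 173 FPKM in si-circCpsf6 (limma adjusted p = 0.0414). Phgdh did not pass with no filter on low genes (limma adjusted p = 0.126), and of the 6 fits with a library left out it passed only without si-circCpsf6 replicate 1 (0.035 against 0.0891 to 0.163 in the other fits). In 16 of the 30 genes si-circCpsf6 replicate 2 was at least 2 times replicate 1, so the spread seen in the 10 stress genes was found there as well.

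Among other stress targets of ATF4 and CHOP, 1 of 22 tested genes passed upward and none downward, beside 0.902% and 0.786% of all tested genes. At an unadjusted p under 0.05 (limma), 10 of the 22 were higher and none lower, beside 10.2% and 10.1% of all tested genes. In this list 21 differences were above 0, with a median of 0.56, beside 47.2% of all tested genes above 0. The groups were apart upward in 7 of the 22 and downward in none, beside 12.8% and 14.0% of all tested genes. The gene that passed was Gdf15, a secreted stress cytokine. It read 3.75, 3.28 and 1.84 FPKM in si-NC and 9.90, 9.84 and 10.97 FPKM in si-circCpsf6 (limma adjusted p = 0.0284). Gdf15 missed the threshold with no filter (limma adjusted p = 0.0886) and with each of the 6 libraries left out in turn (0.0517 to 0.09). Its 3 si-circCpsf6 values lay close together, unlike those of Trib3, Chac1 and Atf3, though si-NC replicate 3 was low in it as in those genes. Ppp1r15a, singled out afterwards from its values, encodes the phosphatase subunit that reverses eIF2 phosphorylation. It read 31.6, 41.8 and 21.25 FPKM in si-NC and 19.6, 62.5 and 32.4 FPKM in si-circCpsf6 and did not pass (limma adjusted p = 0.861).

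Upstream of ATF4, none of 18 tested kinases, phosphatase subunits and initiation factors of the eIF2 step passed in limma (at an unadjusted p under 0.05, 1 was higher and 2 were lower), and their median difference was -0.02. At that unadjusted level 10.2% and 10.1% of all tested genes were higher and lower. The smallest p values were those of Eif2b3, a subunit of the exchange factor of eIF2, at 5.28 ± 0.65 and 3.46 ± 0.18 FPKM, and of Eif2s1, the phosphorylated subunit itself, at 27.5 ± 1.35 and 20.5 ± 2.29 FPKM (SD, n = 3, si-NC and si-circCpsf6, limma adjusted p = 0.112 and 0.145). Both had lower values in every si-circCpsf6 library, as in 14.0% of all tested genes. Eif2b2 of the same list, singled out afterwards, lay wholly higher, as in 12.8% of tested genes. It read 22.65 to 23.1 FPKM in si-NC and 28.2 to 31.3 FPKM in si-circCpsf6 (limma adjusted p = 0.159). No gene passed in limma among 18 bZIP partners and relatives (4 higher and 1 lower at an unadjusted p under 0.05), with a median of 0.15. There Cebpb, a partner of ATF4 and CHOP, was at 2.96 ± 1.2 and 6.22 ± 1.73 FPKM, and Atf6, the sensor of another branch of the unfolded protein response, was at 11.5 ± 2.36 and 19.7 ± 3.83 FPKM (limma adjusted p = 0.12 and 0.105). The authors' q value was 0.12 for Cebpb and 0.02 for Atf6. Of 9 regulators of ATF4 protein stability none passed (2 higher and 1 lower at an unadjusted p under 0.05, limma), with a median of 0.12. Trib1 was at 2.52 ± 0.31 and 4.34 ± 0.62 FPKM, and the acetyltransferase gene Kat2b was at 12.95 ± 2.05 and 7.82 ± 1.89 FPKM (limma adjusted p = 0.094 and 0.121).

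The other stress programmes that share control of these genes gave smaller medians. Among 22 tested targets of ATF6 and XBP1, which answer protein misfolding in the endoplasmic reticulum, none passed in limma (3 higher and 1 lower at an unadjusted p under 0.05) and the median was 0.10. Sel1l, of the degradation machinery there, was at 11.1 ± 4.74 and 21.03 ± 1.42 FPKM, and Sec61b, of the translocon, was at 25.9 ± 2.71 and 15.1 ± 2.23 FPKM (limma adjusted p = 0.102 and 0.0584). Sel1l passed without si-NC replicate 2 (limma adjusted p = 0.0374) and Sec61b passed when only genes averaging 5 FPKM or more were tested (0.0481). By the authors' q value both were under 0.05 (0.02 for Sel1l and 0.04 for Sec61b). Among 22 mTORC1 and AMPK partners of SESN2, DDIT4 and TRIB3 the median was -0.13, with 9 differences above 0 and 13 below. At an unadjusted p under 0.05 (limma), 3 were higher and 4 lower. The groups were apart upward in 5 of the 22 and downward in 8, beside 12.8% and 14.0% of all tested genes. Deptor, an mTOR inhibitor, was the 1 gene that passed, from 3.69 ± 1.59 to 17.5 ± 1.94 FPKM (limma adjusted p = 0.0282). Over all tested genes 0.902% passed upward and 0.786% downward. Deptor likewise missed the threshold with no filter (limma adjusted p = 0.0933) and with each library left out (0.0517 to 0.0884). No target of p53 among 14 tested passed (4 higher and 1 lower at an unadjusted p under 0.05, limma), with a median of -0.06. In that list Trp53 itself was at 34.1 ± 2.17 and 23.7 ± 2.1 FPKM and Trp53inp1 at 4.73 ± 2.47 and 8.73 ± 0.29 FPKM (limma adjusted p = 0.089 and 0.145). No hypoxia gene among 12 tested passed (3 higher and 2 lower at an unadjusted p under 0.05, limma), with a median of 0.08. Over all tested genes, 10.2% were higher and 10.1% lower at that unadjusted level. The angiogenic factor Vegfa was at 26.3 ± 7.84 and 51.2 ± 2.81 FPKM, and the vasodilator peptide gene Adm was at 2.54 ± 0.91 and 0.52 ± 0.3 FPKM (limma adjusted p = 0.0754 and 0.0558). In the authors' deposited table both had a q value listed as 0.00. Some genes, Vegfa, Cebpb and Gadd45a among them, stand in more than 1 list.

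**Figure D5:**
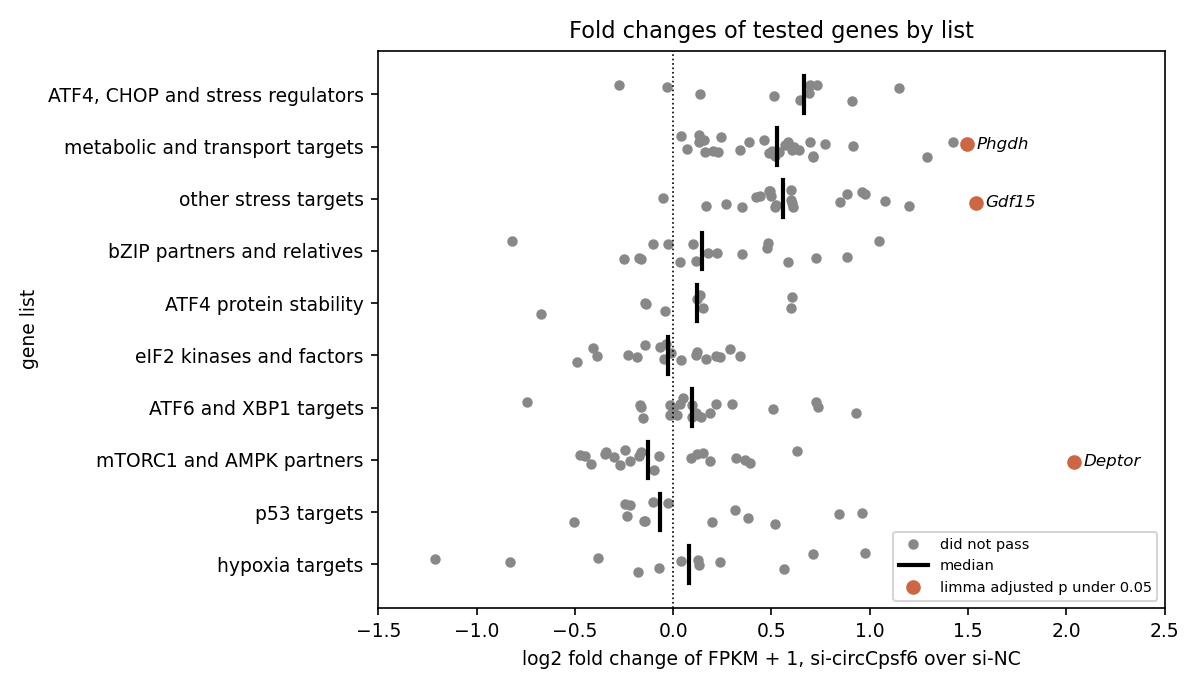
Log2 fold change of FPKM + 1 of each tested gene (points, scattered vertically for clarity) by list, with list medians as black bars and genes past the test in orange. The 3 upper lists have medians of 0.67, 0.53 and 0.56, and the genes that passed are Phgdh, Gdf15 and Deptor.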

How the data were processed

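Per the labels' protocols, N2A RNA extracted with Trizol went into mRNA libraries made with a kit named for small RNA. The authors deposited FPKM values to 2 decimals for each gene and library, together with a fold ratio and its log2 value. The p-values and q-values of their comparison are also in the table the authors deposited, and no source used here names their test. Builds mm8 and mm9 and the aligner Bowtie (0.12.2) appear in the submitters' processing notes, with no role.

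Titles gave each sample its group and number. Genes averaging 1 FPKM or more entered limma 3.58.1 (R 4.3.3) as log2(FPKM + 1), in a model of group alone with an intensity trend, and p-values were adjusted by Benjamini-Hochberg over all 12974 genes at a threshold of 0.05. Fold changes on that scale understate changes of low genes. With 3 libraries a side, exact permutation p-values stop at 0.1, so none was used. The fit was checked on data of known differences before use.

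Depth is unknown: at best 30.3% to 34.0% of low values in a library were whole multiples of a fragment within 0.1, so no count test was run. Positions came from GENCODE M21 (GRCm38), where 55144 of 55385 identifiers were found, and promoter sequences from RefSeq (GRCm38.p6), since the files carry no coordinates of their own.

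The 10 genes, the further lists and the rule for named genes were chosen with earlier results of these data known. The rule names all 10 genes, each list gene past the test or otherwise the 2 with the smallest p, and the 5 nearest profiles to Atf4 and to Ddit3. The count of upstream start codons and the summaries of spread within groups were added after the values were seen. Alternatives were median centring, rescaling each library to a common sum, no filter, no trend, a pseudocount of 0.1, a stricter filter (mean of 5 FPKM), the replicate number as a block, the authors' q-values, and each library left out in turn.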

Additional observations from a re-analysis of the deposited data

How the results depend on the processing

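No member passed under any limma setting tried, and Ddit3 passed by the authors' q value, which gives 1 member higher. Of the 140 member values recomputed under alternatives, 131 kept their direction and side of the threshold. Those that changed sign were Atf5 without si-NC replicate 2 (0.0184) and without si-circCpsf6 replicate 1 (0.0661; range -0.6663 to 0.0661), Ddit4 without si-circCpsf6 replicate 2 (-0.0456; range -0.0456 to 0.23), and Sesn2 with rescaled libraries (0.028), in the authors' table (0.02) and without si-NC replicate 1 (0.02), si-NC replicate 2 (0.15) or si-circCpsf6 replicate 1 (0.31; range -0.3313 to 0.3131). With 1 library left out, differences ranged from 0.84 to 1.32 for Ddit3, 0.52 to 0.87 for Asns, 0.37 to 1.06 for Atf4, 0.48 to 1.31 for Trib3 and 0.20 to 0.95 for Chac1. Over all genes, 117 were called higher and 102 lower. These counts were 4 and 9 with no filter, 418 and 297 by the authors' q value, and 1 to 43 and 2 to 44 with a library left out. In the lists, the number of genes called higher was 3 as reported (Phgdh, Gdf15 and Deptor), 0 with no filter, 14 by the authors' q value and 0 to 1 with a library left out. The gene called was Phgdh without si-circCpsf6 replicate 1 and Sel1l without si-NC replicate 2. List genes called lower were 1 at a mean of at least 5 FPKM (Sec61b) and 2 by the authors' q value (Sec61b and Adm). The 14 called higher by that value included Phgdh, Gdf15, Deptor, Atf6, Sel1l and Vegfa. With the replicate number as a block, 6 genes were called higher and 5 lower over all genes, 0 in the lists and 0 among the 10, with adjusted p of 0.0801 for Phgdh and 0.0615 for both Gdf15 and Deptor in limma. Libraries of the same number deviated from their group means with correlations of 0.10, 0.13 and 0.08 over genes. All 6 libraries correlated best with their own number, a hint from the data and not from the design. These matches are views of the same 3 pairs, and the deviations within a group sum to 0, so they are not separate agreements. For si-circCpsf6 replicate 3 the margin was narrow, 0.084 with si-NC replicate 3 against 0.078 with si-NC replicate 1. The causes were not tested. Fragment depth is unknown, so the counting error of low values, such as those of Atf3, is unknown as well.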
